A study of Homo sapiens with 6 samples.

Results

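The paraspeckle proteins NONO, SFPQ, PSPC1 and RBM14 and the nuclear long noncoding RNAs NEAT1 and MALAT1 were followed in SU-CCS-1 cells after knockdown of EWSR1::ATF1 (EA1). They are 6 of the 18118 genes in the counts, taken by gene name, and all 6 were among the 14571 genes that passed the filter on low counts. The 6 genes were chosen by function but with their differences between control and knockdown, NONO's above all, already in view. Their own contrasts are therefore a description and carry no test.

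A paraspeckle is a nuclear body built on NEAT1. The long form of NEAT1 is the architectural RNA of the body, and NONO, SFPQ and PSPC1, the DBHS (Drosophila behavior human splicing) proteins, bind RNA as dimers with one another and coat it. RBM14 is an RNA-binding protein and transcriptional coactivator that joins these ribonucleoproteins into whole paraspeckles. MALAT1 lies next to NEAT1 in the genome but its RNA resides in the neighbouring nuclear speckles, which hold splicing factors.

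The line SU-CCS-1 was established from a clear cell sarcoma and expresses the EA1 fusion. Its cells were transfected with 5 pmol of siRNA for 48 h, and polyadenylated RNA was sequenced in 2 libraries for each of 3 conditions. These were a negative control siRNA (siNeg1 in the labels), a first siRNA against EA1 (siEA1-1 in the labels, siRNA 1 here) and a second (siEA1-2, siRNA 2 here). The methods name 1 siRNA against EA1 where the labels list 2. The libraries come from wells of 1 line, and nothing states separate cultures, so tests measure the spread between these libraries, which may be technical, and a smaller number of cells with a transcript and less of it per cell cannot be told apart.

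The counts summed to between 5942808 and 7599305 per library, and 3 counts, taken as the smallest level distinct from 0, lay between 0.395 and 0.505 CPM, the counts scaled to a common library total. ATF1, whose 3′ part the fusion carries, was at 82.2 and 87.4 CPM in control, 21.2 and 20.3 CPM with siRNA 1, and 21.7 and 22.3 CPM with siRNA 2. Its log2 fold change (log2FC, control minus knockdown) was 2.03 with siRNA 1 (adjusted p = 6.7e-07) and 1.94 with siRNA 2 (adjusted p = 1.05e-06) by the quasi-likelihood test of edgeR, adjusted over all genes tested by the Benjamini-Hochberg method. Reads of the fusion, of native ATF1 and of native EWSR1 were not separated in these counts. Of 6 clear cell sarcoma markers, SOX10 was not called with either siRNA, and S100B, PMEL, MLANA, MITF and TYR were lower in control than with each siRNA by the edgeR test. MLANA had 4 and 0 counts in control, and its calls were lost without control replicate 2 (log2FC -1.71 and -2.32), with siRNA 1 also without either siRNA 1 library, and with siRNA 2 also without siRNA 2 replicate 1. Of 10 markers of blood, vessel, epithelium, muscle and liver, only CD68 and VWF had a row analysed here, at 0 to 1.69 CPM, and neither passed the filter.

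On hg38, NONO (ENSG00000147140) lies at chrX:71254814-71301522 on the plus strand. SFPQ (ENSG00000116560) lies at chr1:35176378-35193446 and PSPC1 (ENSG00000121390) at chr13:19674752-19783019, both on the minus strand. The other members share the long arm of chromosome 11 and its plus strand. NEAT1 (ENSG00000245532) spans 65422774 to 65445540, MALAT1 (ENSG00000251562) spans 65497640 to 65508073, and RBM14 (ENSG00000239306) spans 66616626 to 66629934. The gap between NEAT1 and MALAT1 was 52099 bases, and that between MALAT1 and RBM14 was 1108552 bases.

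Promoter sequences (RefSeq, GRCh38.p14, 250 bases before to 50 after the annotated start) are shown for NONO and RBM14, the members with the larger excess in control, and for MALAT1. Capitals mark the CCAAT box, which reads as ATTGG on the other strand, and the ATF/CREB core TGACG, which reads as CGTCA there. The NONO window is chrX:71283385-71283684, inside the annotated gene span, the RBM14 window is chr11:66616380-66616679 and the MALAT1 window is chr11:65497488-65497787, all on the plus strand.
NONO promoter: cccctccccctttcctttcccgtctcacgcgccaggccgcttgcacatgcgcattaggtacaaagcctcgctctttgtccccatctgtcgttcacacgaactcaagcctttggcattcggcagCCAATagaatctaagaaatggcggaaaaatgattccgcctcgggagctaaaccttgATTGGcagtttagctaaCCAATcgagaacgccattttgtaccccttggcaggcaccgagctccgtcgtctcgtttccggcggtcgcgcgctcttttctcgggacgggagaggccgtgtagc
RBM14 promoter: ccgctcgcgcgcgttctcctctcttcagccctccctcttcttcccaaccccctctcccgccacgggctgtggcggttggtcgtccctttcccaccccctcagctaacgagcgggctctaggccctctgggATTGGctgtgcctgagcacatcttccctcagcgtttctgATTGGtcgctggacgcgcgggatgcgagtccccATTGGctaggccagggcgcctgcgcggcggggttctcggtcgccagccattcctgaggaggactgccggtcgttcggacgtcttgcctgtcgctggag
MALAT1 promoter: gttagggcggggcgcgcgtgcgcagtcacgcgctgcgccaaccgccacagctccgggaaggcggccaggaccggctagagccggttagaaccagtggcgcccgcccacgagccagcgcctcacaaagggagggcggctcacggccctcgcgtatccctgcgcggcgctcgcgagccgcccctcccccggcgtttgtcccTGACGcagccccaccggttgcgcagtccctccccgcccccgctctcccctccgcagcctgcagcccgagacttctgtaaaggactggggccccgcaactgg

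The full ATF/CREB motif TGACGTCA, the related TGANNTCA, which includes it, and the AP1 motif TGAGTCA, each searched on both strands, had no match in the windows of NONO, RBM14, PSPC1 or MALAT1, the last of which has a second annotated start. Over all 35116 promoters of the table, 1.85% held TGACGTCA, 11.5% TGANNTCA and 4.95% TGAGTCA. The core TGACG was present only in the MALAT1 window shown, 51 bases before the start, and 24.6% of all promoters held it. NONO and RBM14 each held 3 CCAAT, a motif looked for after these sequences had been read. At least 1 CCAAT was found in 34.6% of promoters and at least 3 in 3.26%. SFPQ and NEAT1 had no entry in the promoter table.

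Both noncoding RNAs were counted in libraries selected for poly(A). However, RNase P cleavage makes the 3′ ends of MALAT1 and long NEAT1, which hold a triple helix and carry no poly(A) tail. Their genomic A-rich tracts were therefore sought as 15-base windows with at least 13 adenines. That of MALAT1 is shown with 45 bases on each side and the tract in capitals, at chr11:65506053-65506161 on the plus strand of hg38, and is exonic.
MALAT1 A-rich tract: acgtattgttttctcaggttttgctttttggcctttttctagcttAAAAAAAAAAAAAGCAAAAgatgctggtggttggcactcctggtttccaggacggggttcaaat

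MALAT1 held 1 such tract, of 19 bases with 17 adenines, 8458 bases from its annotated start. NEAT1 held 6, the first of them 10236 bases from the start. The part of these tracts in the counts was not tested, and the counts per gene do not separate the short, polyadenylated form of NEAT1 from the long form.

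Among the DBHS transcripts, NONO was lower with siRNA 1 by more than its spread, whereas SFPQ differed little between conditions. PSPC1 was lower in the mean with each siRNA, by an amount that rested mostly on control replicate 2. NONO, which binds RNA and acts in splicing, transcription and DNA repair, was at 758 and 729 normalized CPM in the control libraries, 317 and 259 with siRNA 1, and 622 and 598 with siRNA 2. The conditions did not overlap, and the order of levels was control, siRNA 2, siRNA 1. Its log2FC was 1.37 (SE 0.12) with siRNA 1, a fold of 2.58, and 0.29 (SE 0.12) with siRNA 2, a fold of 1.22. The direct difference between the siRNAs, siRNA 1 minus siRNA 2, was -1.08 (SE 0.12), the 183rd lowest of the 14571 genes. NONO was not called (adjusted p under 0.05) with siRNA 2, but it was called there with the replicate number as a block (log2FC 0.29), without siRNA 1 replicate 2 (log2FC 0.31) and when libraries were scaled by their totals alone (log2FC 0.34). ZMYM3 overlaps NONO by 333 bases on the opposite strand and had 777 to 949 counts per library.

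SFPQ, the usual partner of NONO and a splicing factor, was at 406 and 452 CPM in control, 368 and 393 with siRNA 1, and 422 and 430 with siRNA 2. The siRNA 2 libraries lay between the control libraries, and the siRNA 1 libraries lay below all others. The log2FC was 0.17 (SE 0.10) with siRNA 1 and 0.01 (SE 0.10) with siRNA 2, the latter between -0.03 and 0.08 over 13 alternative settings.

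PSPC1, the least abundant DBHS member, was at 47.9 and 66.0 CPM in control, 45.2 and 45.3 with siRNA 1, and 50.4 and 44.2 with siRNA 2. Control replicate 2 stood above the other 5 libraries, which spanned 44.2 to 50.4 CPM. The log2FC was 0.33 (SE 0.15) with siRNA 1 and 0.27 (SE 0.15) with siRNA 2, and neither was called. Without control replicate 1 these values were 0.54 and 0.48 and both were called, and without control replicate 2 they were 0.11 and 0.06. PSPC1 with siRNA 1 was also called without siRNA 2 replicate 1 (log2FC 0.36).

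The plot of normalized CPM by library shows these levels for all 6 transcripts.

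**Figure D1:**
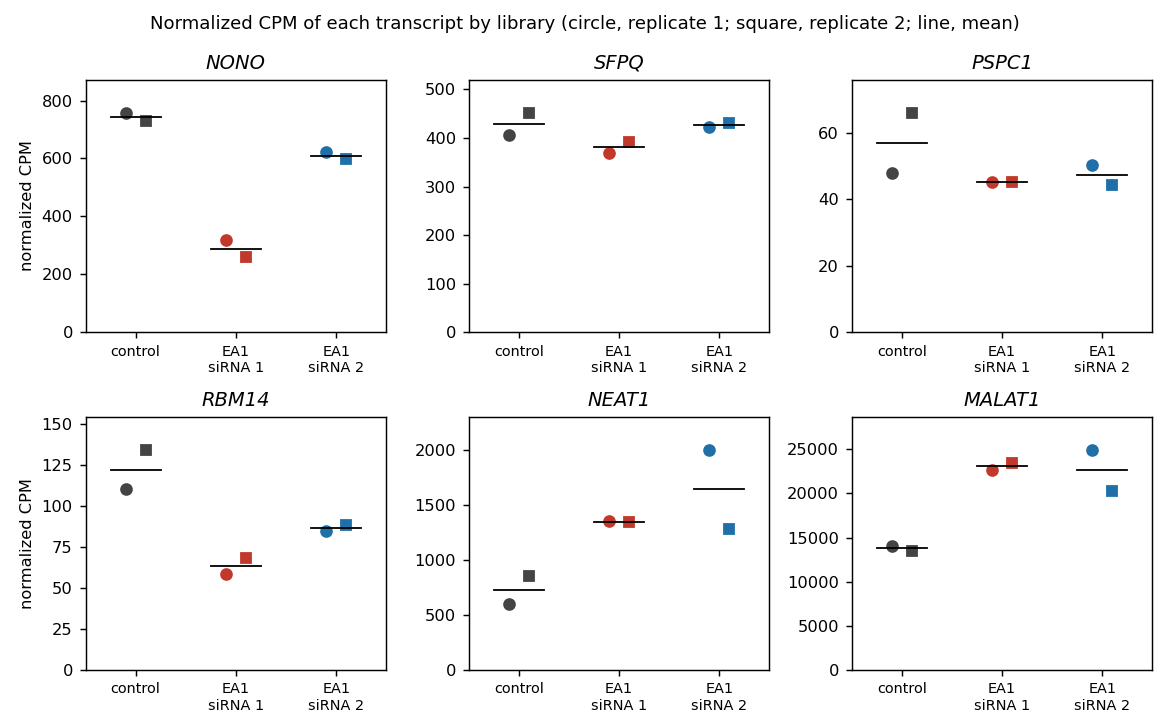
Normalized CPM (vertical axis, linear from 0, with its own range in each panel) of the 6 transcripts in the 2 libraries of each condition (circle, replicate 1; square, replicate 2; line, mean). NONO is at 317 and 259 CPM with siRNA 1 and at 622 and 598 CPM with siRNA 2, whereas MALAT1 lies between 20287 and 24930 CPM in all 4 knockdown libraries.

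The makeup of the DBHS transcripts was then compared per length, as counts divided by the canonical transcript length (2661 bases for NONO, 3740 for SFPQ and 2435 for PSPC1). NONO made up 68.9% and 64.9% of the sum in control, 50.5% and 44.0% with siRNA 1, and 63.6% and 62.8% with siRNA 2. The SFPQ share was 26.3% and 28.7% in control, 41.7% and 47.6% with siRNA 1, and 30.7% and 32.2% with siRNA 2. PSPC1 made up 4.76% and 6.42% in control, 7.86% and 8.43% with siRNA 1, and 5.64% and 5.08% with siRNA 2. Thus the siRNA 1 libraries had the lowest NONO share and the highest shares of its partners. As parts of a common sum, the partners' shares rise when that of NONO falls. Their own levels were not higher, with mean normalized CPM of 380 with siRNA 1 against 429 in control for SFPQ, and 45.3 against 56.9 for PSPC1. The ratio of NONO to SFPQ per length was 2.44 ± 0.252 (SD, n = 2) in control, 1.07 ± 0.203 with siRNA 1 and 2.01 ± 0.0827 with siRNA 2. These levels rest on the length used. With the merged length of all annotated exons, chosen after seeing the data, the ratio was 1.20 in control, 0.523 with siRNA 1 and 0.984 with siRNA 2, so that SFPQ exceeded NONO in the mean of each knockdown condition, while the siRNA 1 libraries kept the lowest NONO shares.

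**Figure D2:**
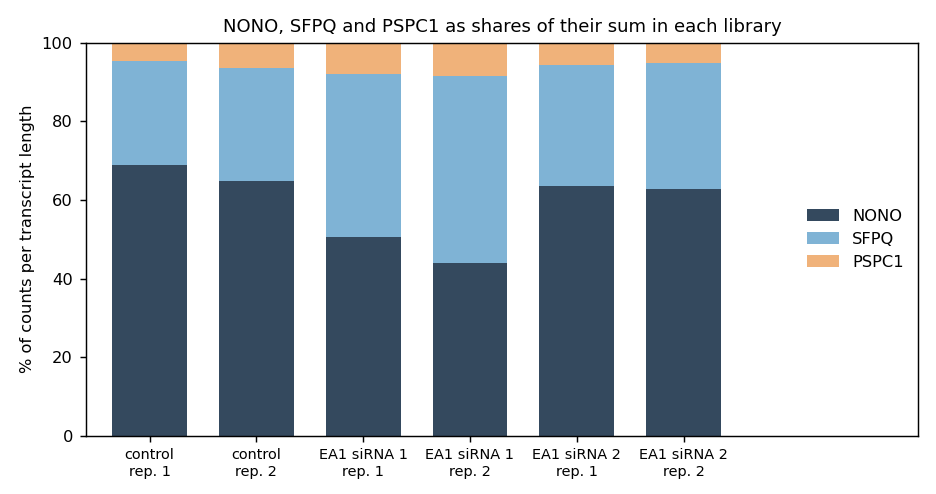
Share of NONO, SFPQ and PSPC1 in their sum (vertical axis, % of counts per canonical transcript length) in each of the 6 libraries. The NONO share is 50.5% and 44.0% in the siRNA 1 libraries and between 62.8% and 68.9% in the other 4.

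RBM14 was higher in control than with either siRNA. It was at 110 and 134 CPM in control, 58.7 and 68.2 with siRNA 1, and 84.4 and 88.6 with siRNA 2. As for NONO, the conditions did not overlap and the siRNA 1 libraries were lowest. Its log2FC was 0.95 (SE 0.12) with siRNA 1, a fold of 1.93, 0.50 (SE 0.12) with siRNA 2, a fold of 1.41, and -0.45 (SE 0.13) between the siRNAs, the last called with the replicate block alone. The call with siRNA 2 was lost without control replicate 2, at a log2FC of 0.38. The read-through gene RBM14-RBM4, which spans RBM14, had 15 to 33 counts per library against 413 to 1043 for RBM14, and how reads shared by them were assigned is not stated.

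NEAT1 and MALAT1 went the other way, and both control libraries lay below every knockdown library. NEAT1 was at 597 and 849.5 CPM in control, 1351 and 1343 with siRNA 1, and 1999 and 1284 with siRNA 2. The control libraries did not overlap the knockdown libraries, and both siRNA 1 values lay between those of siRNA 2, so that these neighbours in the order did not differ beyond their spread. The log2FC was -0.90 (SE 0.20) with siRNA 1, which is 1.86-fold more in knockdown, and -1.18 (SE 0.20) with siRNA 2, 2.27-fold more. Without siRNA 2 replicate 1, the highest library, the siRNA 2 value was -0.81. Between the siRNAs NEAT1 had a log2FC of -0.28 (SE 0.20) and was not called, but it was called without siRNA 2 replicate 2 (log2FC -0.56).

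MALAT1 took more reads than any other gene in every library, 1.41% and 1.38% of all counts in control, 2.31% and 2.35% with siRNA 1, and 2.36% and 2.03% with siRNA 2. Its normalized level was 14050 and 13496 CPM in control, 22701 and 23461 with siRNA 1, and 24930 and 20287 with siRNA 2. The knockdown conditions overlapped each other and neither overlapped control. The log2FC was -0.74 (SE 0.15) with siRNA 1, 1.68-fold more in knockdown, and -0.71 (SE 0.15) with siRNA 2, 1.64-fold more, and the difference between the siRNAs was 0.03 (SE 0.14). TALAM1, the antisense transcript that overlaps 8121 bases of MALAT1, had no row analysed here. The library kit keeps strand, but the use of strand in the counting is not given in the sources used here.

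Per kilobase of canonical transcript, MALAT1 was the most abundant member in control, at 1320 ± 37.6 CPM per kb (SD, n = 2), 19th of the 14532 genes with a length. NONO followed at 279 ± 7.77 CPM per kb (140th), and SFPQ at 115 ± 8.61 (465th). NEAT1 was at 31.8 ± 7.85 CPM per kb, PSPC1 at 23.4 ± 5.24 and RBM14 at 22.8 ± 3.15, and the PSPC1 range overlapped those of NEAT1 and RBM14, which did not overlap each other. The NEAT1 value divides all reads by the 22743 bases of the long form. MALAT1 exceeded NEAT1 per length by 51.3- and 34.6-fold in the control libraries, 36.6- and 38.1-fold with siRNA 1, and 27.2- and 34.4-fold with siRNA 2. The siRNA 1 ratios lay within the range of control, and the siRNA 2 ratios lay below both, closest to control at 34.4 against 34.6. NEAT1 per NONO, each per length, was 0.0921 and 0.136 in control, 0.498 and 0.608 with siRNA 1, and 0.376 and 0.251 with siRNA 2. No condition overlapped another, and the ratio takes short and long NEAT1 together.

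Counted together, 4 of the 6 members were called with siRNA 1, NONO and RBM14 as higher in control and NEAT1 and MALAT1 as lower, where 40.1% of all genes tested were called, 20.3% as higher and 19.9% as lower. With siRNA 2 the calls were 3 of 6, RBM14 as higher in control and NEAT1 and MALAT1 as lower, beside 36.7% of all genes, 18.2% as higher and 18.5% as lower. Between the siRNAs NONO was called, 1 of 6, or 2 of 6 with RBM14 under the replicate block, beside 2.24% of all genes without the block. Since these contrasts were in view when the members were chosen, nothing is read from these counts. The control libraries lay wholly on 1 side of the siRNA 1 libraries for 6 of 6 members, as they did for 72.1% of all genes tested, and of the siRNA 2 libraries for 4 of 6, the exceptions being SFPQ and PSPC1, beside 68.1% of all genes. The siRNA 1 and siRNA 2 libraries did not overlap for 3 of 6 members, NONO, SFPQ and RBM14, beside 46.9% of all genes. Both contrasts with control share the same 2 control libraries.

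**Figure D3:**
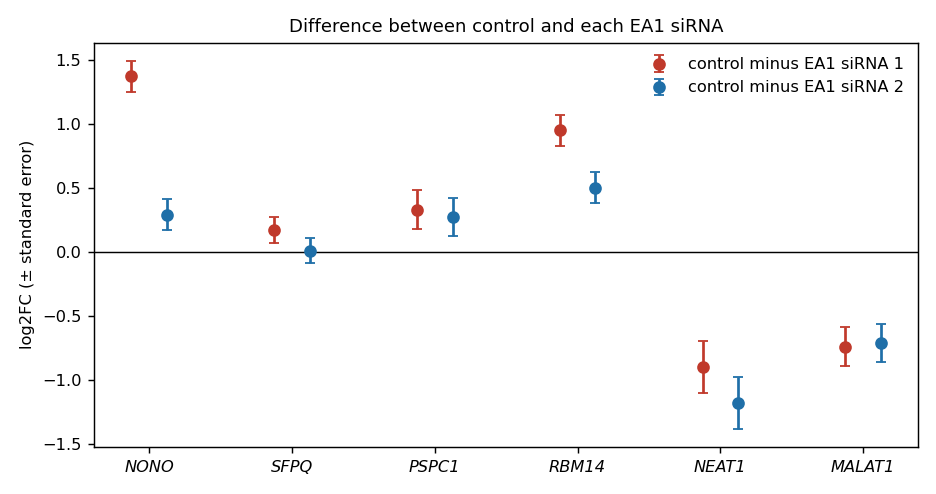
log2FC (vertical axis, control minus knockdown, ± SE) of the 6 members with siRNA 1 (red) and siRNA 2 (blue). NONO stands at 1.37 and 0.29 and RBM14 at 0.95 and 0.50, above 0, NEAT1 at -0.90 and -1.18 and MALAT1 at -0.74 and -0.71, below it, and SFPQ and PSPC1 lie between 0.01 and 0.33.

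Whether other proteins found in paraspeckles also differed was asked of a list of 37, of which 34 were tested. HNRNPA1L2, CELF6 and DLX3 had no row analysed here. With siRNA 1, 13 (38.2%) were higher in control, 4 (11.8%) lower and 17 not called, beside 20.3% and 19.9% of all genes tested, with a median log2FC of 0.17 against -0.02 for all genes. With siRNA 2, 11 (32.4%) were higher, 3 (8.82%) lower and 20 not called, beside 18.2% and 18.5% of all genes, with a median of 0.07 against 0.00. Higher in control with each siRNA were 10, and lower with each were 3. By DESeq2, 13 were higher and 4 lower with siRNA 1, and 7 and 3 with siRNA 2. Every siRNA 2 call lost without control replicate 2 was of a gene higher in control, so the excess in that direction leaned on this library. The calls with siRNA 2 fell from 14 to 7 without control replicate 2, and DESeq2 made 10.

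By gene symbol, the list held 7 tested heterogeneous nuclear ribonucleoproteins, which package nascent RNA and guide splicing. Counting them apart was outside the rule for named genes and was done with their values in view. Their counts are therefore a description. Of these 7, 4 were higher in control with siRNA 1 and 3 with siRNA 2, and none was called lower. Of all genes tested, 20.3% were higher and 19.9% lower with siRNA 1, and 18.2% and 18.5% with siRNA 2. HNRNPK (0.20 and -0.04), HNRNPR (0.23 and -0.06) and HNRNPUL1 (0.17 and 0.10) were called with neither. HNRNPR was called with siRNA 1 without either siRNA 2 library (0.25) and with only the 4 libraries compared (0.24). HNRNPH3 had the largest mean difference of the list among genes higher in control. Its log2FC was 0.71 (SE 0.11) with siRNA 1 and 0.85 (SE 0.11) with siRNA 2, with adjusted p of 0.000324 and 0.000117 in the edgeR test. HNRNPA1, at 525 and 495 CPM in control, was at 268 and 292 with siRNA 1 and 348 and 338 with siRNA 2 (edgeR adjusted p = 4.35e-05 and 0.000975). HNRNPF had 0.60 and 0.67 (edgeR adjusted p = 0.000328 and 0.000211). The splicing regulator SRSF10 had 0.78 and 0.49 and the RNA-binding protein DAZAP1 0.66 and 0.54, each called with both siRNAs, although both lost the siRNA 2 call without control replicate 2, at 0.41 and 0.42.

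Lower in control with each siRNA were ZC3H6, SS18L1 and RUNX3. ZC3H6, a zinc finger protein, was at 19.0 and 15.8 CPM in control, 42.0 and 43.0 with siRNA 1, and 34.2 and 35.7 with siRNA 2, with no overlap (log2FC -1.29 and -1.01, edgeR adjusted p = 4.93e-05 and 0.000386). SS18L1, a subunit of the neuronal BAF chromatin remodeler, had -0.51 and -0.91 (edgeR adjusted p = 0.0077 and 0.000205). Its siRNA 1 call was lost without control replicate 1 (-0.47) or siRNA 1 replicate 1 (-0.42). The transcription factor RUNX3 had -0.66 and -0.54 (edgeR adjusted p = 0.000529 and 0.00239).

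The RNA-binding proteins EWSR1 and TAF15 are paraspeckle components too, and EWSR1 gives its 5′ part to the fusion. TAF15 was higher in control with each siRNA, at a log2FC of 0.49 and 0.46 (edgeR adjusted p = 0.00212 and 0.00358). EWSR1 had 0.11 and 0.04 (edgeR adjusted p = 0.45 and 0.789), at 198 and 233 CPM in control, 195 and 203 with siRNA 1, and 221 and 198 with siRNA 2. The ranges for EWSR1 overlapped in all comparisons.

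**Figure D4:**
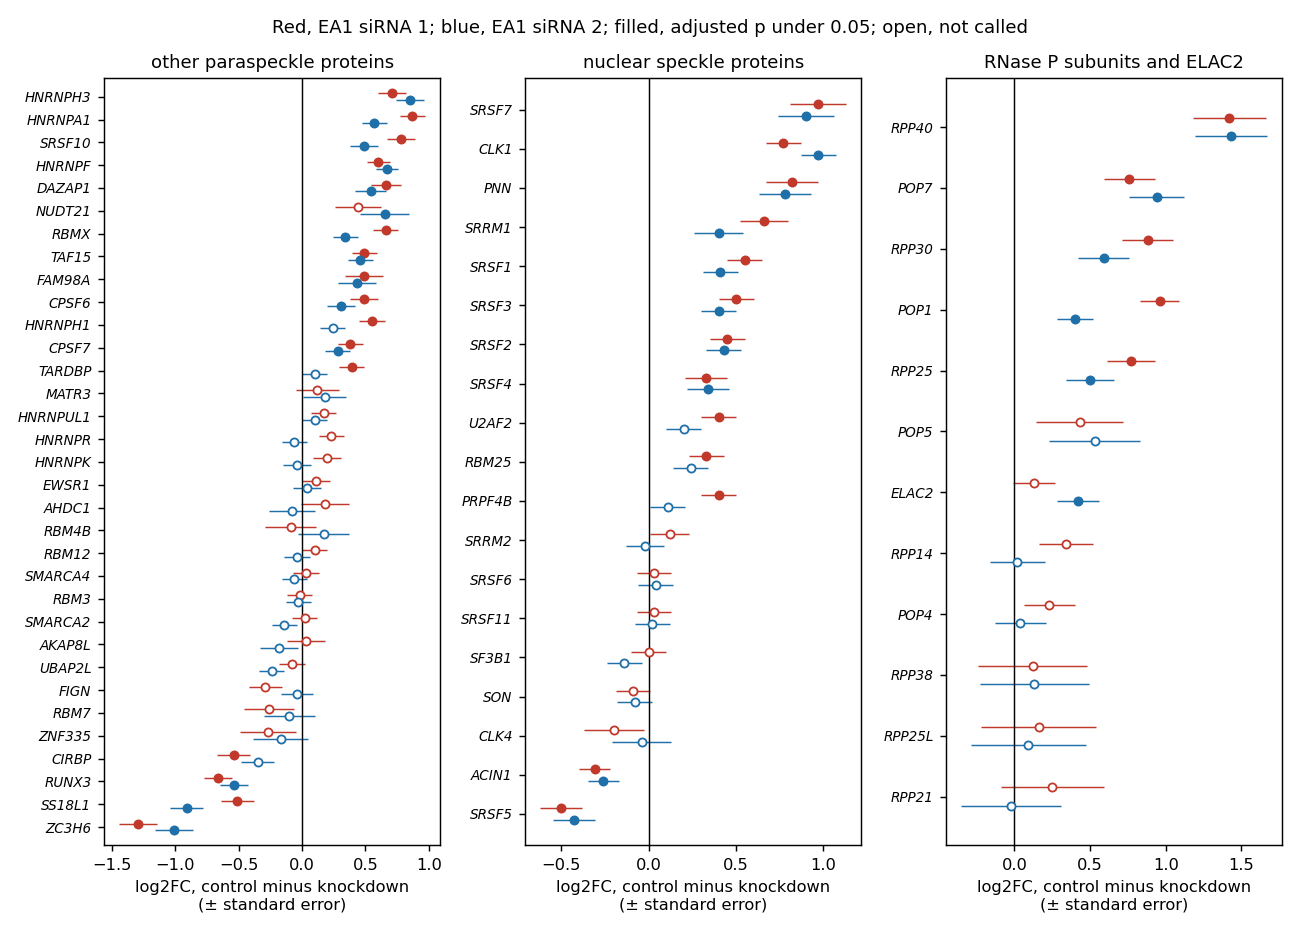
log2FC (horizontal axis, control minus knockdown, ± SE) of tested genes of 3 lists with siRNA 1 (red) and siRNA 2 (blue), filled where the adjusted p of the edgeR test was under 0.05. In the panel of other paraspeckle proteins HNRNPH3 stands at the top, at 0.71 and 0.85, and ZC3H6 lies farthest left at -1.29 and -1.01.

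Nuclear speckle proteins, which share the compartment of MALAT1, were listed as 20 genes, of which 19 were tested and U2AF1 was not. With siRNA 1, 11 (57.9%) were higher in control and 2 (10.5%) lower, beside 20.3% and 19.9% of all genes, with a median log2FC of 0.33 against -0.02. With siRNA 2, 8 (42.1%) were higher and 2 (10.5%) lower, beside 18.2% and 18.5%, with a median of 0.20 against 0.00. The splicing factor SRSF7 was at 113 and 110 CPM in control, 50.3 and 63.1 with siRNA 1, and 48.4 and 69.6 with siRNA 2 (log2FC 0.97 and 0.90, edgeR adjusted p = 0.000541 and 0.00103). CLK1, a kinase of SR splicing factors, had 0.77 and 0.97 (edgeR adjusted p = 0.000123 and 2.98e-05), and pinin, PNN, had 0.82 and 0.78 (edgeR adjusted p = 0.00132 and 0.00217). SON and SRRM2, the core scaffold proteins of speckles, were not called, at -0.09 and -0.08 for SON and 0.12 and -0.02 for SRRM2. SRSF5 was lower in control at -0.50 and -0.43, with the siRNA 1 call lost without siRNA 1 replicate 1 (-0.33) or control replicate 2 (-0.45) and the siRNA 2 call lost without control replicate 1 (-0.45) or 2 (-0.38). ACIN1 was lower at -0.31 and -0.26, with both calls lost under many alternatives. The list's calls fell from 13 to 7 with siRNA 1 without its replicate 1, and from 10 to 6 with siRNA 2 without control replicate 1 and to 5 without control replicate 2.

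RNase P cuts the 3′ ends of MALAT1 and long NEAT1, and ELAC2 (RNase Z) trims the small RNA released from MALAT1. Their subunits gave 12 tested genes. With siRNA 1, 5 (41.7%) were higher in control and none lower, beside 20.3% and 19.9% of all genes (median log2FC 0.38 against -0.02). With siRNA 2, 6 of the 12 were higher and none lower, beside 18.2% and 18.5% (median 0.41 against 0.00). By edgeR at an unadjusted p under 0.05, the numbers in either direction were 5 and 6 of the 12, beside 7003 and 6613 of all 14571 genes. With siRNA 1, 40.1% of all genes were called in either direction, close to the 41.7% of this list. The largest difference was in RPP40, at 18.4 and 15.2 CPM in control, 6.54 and 5.93 with siRNA 1, and 6.05 and 6.32 with siRNA 2, a log2FC of 1.42 and 1.43 (edgeR adjusted p = 0.000666 and 0.000782). POP7 had 0.76 and 0.94 and RPP30 0.88 and 0.59. The POP7 call with siRNA 1 was lost without siRNA 1 replicate 1 (0.66), and the RPP30 call with siRNA 2 without control replicate 1 (0.42) or siRNA 2 replicate 1 (0.49). ELAC2 itself had 0.13 and 0.42 (edgeR adjusted p = 0.499 and 0.0313). Its siRNA 2 call was lost without control replicate 1 (0.38) or 2 (0.50), siRNA 1 replicate 1 (0.42) or siRNA 2 replicate 1 (0.36). DESeq2 (0.44) and the fit of only the 4 libraries compared (0.42) did not call it either. With siRNA 2 the list's calls fell to 3 without control replicate 1, control replicate 2 or siRNA 2 replicate 1, and DESeq2 made 3. These transcript levels do not measure the enzymes' activity.

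Between the siRNAs, edgeR called 0 genes of these 3 lists. The nearest was POP1, an RNase P subunit, at a log2FC of -0.56 (edgeR adjusted p = 0.0514), which was called with no filter, with at least 10 counts in every library, with RLE size factors, with the replicate block and without siRNA 2 replicate 2, at -0.55 to -0.62, and by DESeq2 (-0.57). At an unadjusted p under 0.05 there were 7 of 34 other paraspeckle proteins, 1 of 19 speckle proteins and 1 of 12 cleavage enzymes, beside 2471 of all 14571 genes, and DESeq2 called 0 of the other paraspeckle proteins, 0 of the speckle proteins and 1 cleavage enzyme, POP1.

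The surroundings of NEAT1 and MALAT1 held 11 further tested genes within 100 kb. MAP3K11, a kinase gene, was lower in control with each siRNA, at 99.5 and 94.4 CPM in control, 174 and 161 with siRNA 1, and 144 and 134 with siRNA 2 (log2FC -0.79 and -0.52, edgeR adjusted p = 8.78e-05 and 0.00203). The mitochondrial carrier SLC25A45 had -0.78 and -0.47, but its siRNA 2 call (edgeR adjusted p = 0.0425) was lost whichever of the 6 libraries was left out. FAM89B had -0.82 with siRNA 1 (edgeR adjusted p = 0.02), lost without siRNA 1 replicate 1 (-0.71), siRNA 1 replicate 2 (-0.90) or control replicate 2 (-0.54), and -0.30 with siRNA 2 (edgeR adjusted p = 0.401). The pseudogene FAUP4, which lies between NEAT1 and MALAT1, had 0.84 (edgeR adjusted p = 0.129) and 1.70 (edgeR adjusted p = 0.0115), on 9 to 49 counts per library, and the second was lost without control replicate 1 (1.20). DPF2, before NEAT1, was at 0.02 and -0.01.

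FRMD8, the nearest tested gene before NEAT1, was lower with siRNA 2 alone by the test of each contrast. It was at 102.5 and 115 CPM in control, 104 and 126.5 with siRNA 1, and 62.1 and 71.9 with siRNA 2. The siRNA 2 libraries lay below the other 4. Its log2FC was -0.08 with siRNA 1 (edgeR adjusted p = 0.627), 0.69 with siRNA 2 (edgeR adjusted p = 0.00131) and 0.78 between the siRNAs (edgeR adjusted p = 0.0119), the last lost without siRNA 1 replicate 2 (0.64). LTBP3, ZNRD2-AS1, ZNRD2 and EHBP1L1 were not called in any of the 3 contrasts.

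**Figure D5:**
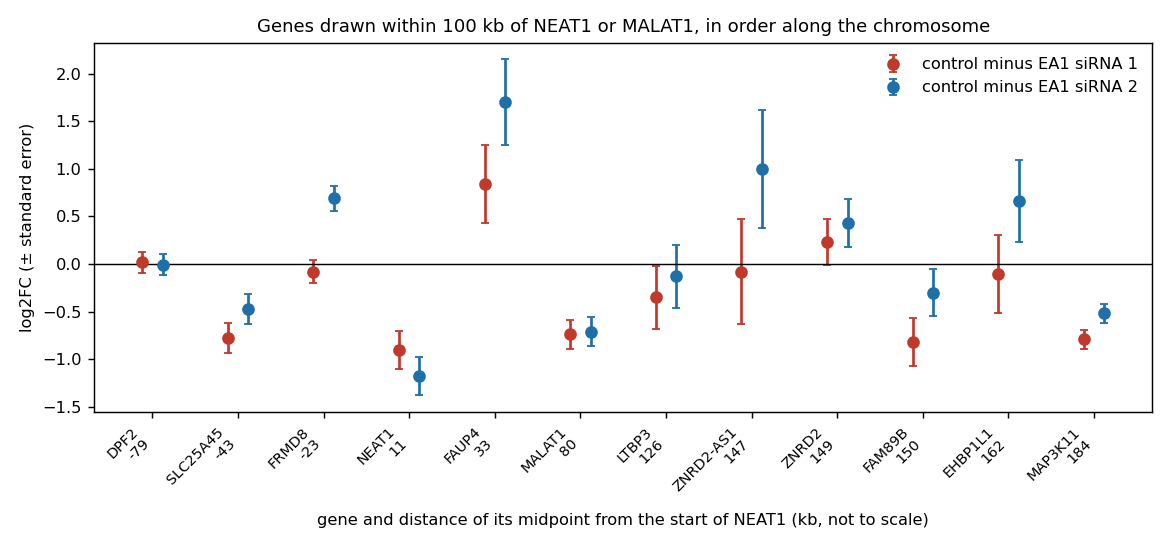
log2FC (vertical axis, control minus knockdown, ± SE) of NEAT1, MALAT1 and 10 of the 11 other tested genes within 100 kb, in order along the chromosome (horizontal axis, not to scale), with siRNA 1 in red and siRNA 2 in blue. NEAT1 and MALAT1 lie at -0.71 or lower, as do SLC25A45, FAM89B and MAP3K11 with siRNA 1, and FRMD8 lies at -0.08 and 0.69.

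For each member, the 3 genes whose centred log2 CPM profiles over the 6 libraries lay nearest by Euclidean distance were listed. They were picked by these values, the points share libraries and conditions, and no test applies. Nearest to NONO were FBXO45 (distance 0.231, r = 0.988), MPC1, a subunit of the mitochondrial pyruvate carrier (0.244, r = 0.993), and RABL6 (0.259, r = 0.985). FBXO45 was at 44.3 and 49.4 CPM in control, 20.1 and 16.5 with siRNA 1, and 34.7 and 35.2 with siRNA 2, the same order of conditions as NONO. Nearest to RBM14 were CCDC125 (0.110), ATAD3A (0.148) and PM20D2 (0.172). Nearest to NEAT1 were FN1, which encodes fibronectin (0.198), PEX2 (0.228) and MECOM (0.245). FN1 had its highest level, 57.0 CPM, in the library where NEAT1 was highest. Among the 3 nearest to MALAT1 were KIAA0930 (0.0771, r = 0.997) and FAHD1 (0.0854), and KIAA0930 was at 49.7 and 47.1 CPM in control and between 72.9 and 84.6 in the knockdown libraries. SYNJ1, EFTUD2 and MTFR1 lay nearest to SFPQ, and KHDC4, DUS4L-BCAP29 and MIA2 to PSPC1.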

How the data were processed

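RNA-seq counts of the 6 SU-CCS-1 libraries were analysed, with condition and replicate number from the labels. The authors aligned reads to hg38 with BWA-MEM 0.7.10-r789, counted them per gene with featureCounts 1.6.3 and deposited raw counts, with no normalization or pooling; which annotation and strand setting were used is not given in the sources used here. BWA-MEM does not model splicing, so reads across exon junctions may be lost or clipped. Gene positions and lengths came from GENCODE release 44, which held 18063 of 18118 identifiers.

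In edgeR 4.0.16 (R 4.3.3), genes were filtered with filterByExpr (minimum count 10, minimum total 15, by condition), libraries were scaled by TMM, and the 3 conditions were compared by the quasi-likelihood test, with p values adjusted by Benjamini-Hochberg across the 14571 genes tested. An adjusted p under 0.05 was a call. Normalized CPM are counts scaled by the TMM-adjusted library total, and profiles used log2 CPM with a prior count of 2. The fit was tested on simulated counts. The common biological coefficient of variation was 0.109. Floors cover counting error only. The members, the gene lists and the tests were chosen with earlier results of these data known.

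Genes named beside the members were, by rule, those called in the same direction with each siRNA, at most 5 of the other paraspeckle proteins and 3 of the speckle and cleavage lists in each direction by mean log2FC, EWSR1, TAF15, ATF1, tested genes within 100 kb of NEAT1 or MALAT1, and the 3 nearest profiles of each member. HNRNPK, HNRNPR, HNRNPUL1, SON, SRRM2, ELAC2 and POP1 were named outside the rule after their values were seen. Some items that the rule names are not reported here. The replicate numbers come from the labels, which state no shared batch or day. Deviations of same-numbered libraries from their condition's mean correlated at 0.130, 0.199 and 0.144 between the 3 pairs of conditions, and values with the replicate block stand beside the results whose call it changed. The alternatives were RLE size factors, library totals alone, no filter, a minimum of 10 counts in each library, the replicate number as a block, DESeq2 1.42.0, only the 4 libraries compared, and each library left out in turn.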

Additional observations from a re-analysis of the deposited data

Results flagged for a closer look

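FRMD8, the nearest tested gene before NEAT1, was marked because its response differed between the siRNAs, with a difference of 0.78 on the log2 scale (siRNA 1 minus siRNA 2) and an adjusted p of 0.0119 in edgeR's quasi-likelihood test. It was lower than control in both siRNA 2 libraries (62.1 and 71.9 CPM against 102.5 and 115 CPM) and not in the siRNA 1 libraries (104 and 126.5 CPM). Without siRNA 1 replicate 2 the difference was 0.64 with an adjusted p of 0.197 by edgeR. With 2 libraries a condition, no search for a sample far from its group was possible.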

How the results depend on the processing

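No member or named gene reversed a called direction under the 13 alternatives. Of 1894 values of the genes named by rule beside the members, 65 lost a call under them and 7 gained one. These numbers leave out the members, the markers and the genes named outside the rule. Among the last, POP1 and HNRNPR gained calls and ELAC2 lost calls under some alternatives. With each library left out in turn, the other paraspeckle proteins called with siRNA 2 ranged from 7 to 13, and the members called between the siRNAs from 1 to 2. With the replicate block, 2 members were called between the siRNAs, RBM14 (-0.45) beside NONO, NONO was called with siRNA 2 (0.29), and POP1 was called between the siRNAs (-0.56). The block changed no other call of a gene named in the report, apart from TYR between the siRNAs (-0.42, called). Without division by length, the NONO share of the DBHS transcripts was 60.5% in control, 40.3% with siRNA 1 and 56.3% with siRNA 2, and with merged exon length, an alternative chosen after seeing the data, 49.6%, 30.4% and 45.5%. MALAT1 per NEAT1 without length was 19.7, 17.1 and 14.1. Another scaling moved the median of all genes by at most 0.06.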
